A study of Ambystoma mexicanum with 15 samples.

Results

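Gene expression in axolotl spinal cord 7 days after injury was compared with that 3 days after injury. The comparison used 6 of the 15 arrays of the study, all 3 labelled 7 days post injury and all 3 labelled 3 days post injury, and no array of either time was left out. Each array, an Affymetrix chip with custom axolotl probe sets, held total RNA pooled from tissue of 10 animals. Per the labels the animals of both groups were white axolotls 1 month old with a spinal cord injury and no drug named, and the tissue was spinal cord. In the protocol a portion of the cord was cut out after an injection into the central canal, and the injured area was collected later. The protocol spells out collection at 1 day only, and does not say whether the 3 and 7 day animals received the vehicle, water. How much tissue around the cord was taken is not given in the sources used here. The other 9 arrays, 3 each from uninjured cord, from cord 1 day after injury and from cord 1 day after injury with ivermectin, entered the model for its estimate of spread. Uninjured cord, described in the labels as mature tissue, is given as a reference level, and comparisons that share arrays are not independent.

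The axolotl, a salamander, regrows its spinal cord after a lesion. Ependymoglial cells, which line the central canal and express glial filament proteins and neural stem cell genes, re-enter the cell cycle, extend into the gap and supply new glia and neurons. Around them, macrophages clear debris, connective tissue and vessel cells lay down matrix, and cut axons regrow. Stress and immune responses begin early after a lesion, and growth of the regenerating tube follows.

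Between 3 and 7 days 25.6% of 8639 named genes rose and 16.8% fell. The share that rose was larger for glia and neural progenitors, matrix, cartilage, macrophages, inflammation, early response, the proteasome and mitosis, among other lists. For glia and neural progenitors the share that fell, 16.2%, was near that of all named genes. More fell than rose among genes of red cells, kidney tubule, muscle, the respiratory chain, DNA replication, neurons and myelin. The chaperone HSPA5 and the metal transporter SLC39A8 were among the largest falls, and the cathepsin CTSK and the macrophage receptor SIGLEC1 among the largest rises. Of 20035 probe sets tested, 4448 were higher and 3722 lower at 7 days by limma (adjusted p under 0.05), which is 40.8% of those tested (22.2% higher and 18.6% lower). The balance turned under other scalings, to 3862 higher and 4141 lower with cyclic loess and to 3886 and 4392 with median centring, against a median difference over all probe sets of -0.01 as deposited, 0.00 with loess and -0.04 with centring. Differences were mostly small, since 147 probe sets were at least 2-fold higher and 253 at least 2-fold lower.

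With 1 probe set for each of 8639 named genes, 2212 genes (25.6%) rose and 1454 (16.8%) fell, 42.4% in all, and 52.0% had arrays that did not overlap between the groups (49.8% over all probe sets). The counts for each gene group are set against these shares. Some gene lists overlap, and a gene in several lists is counted in each, so their counts are not independent. Levels and differences are on the log2 scale, differences are 7 days minus 3 days with the SE from limma (n = 3 arrays per group), and the values of 3 arrays are given in the order of their replicate numbers. Arrays of 1 group correlated at 0.998 across probe sets and arrays of the 2 groups at 0.987 to 0.988. Signals close to an array's lower quartile, 4.26 to 4.28 at 3 days and 4.21 to 4.24 at 7 days, cannot be told from background here, and a difference from such a level is not exact.

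Poly-A spikes, RNA put into each sample ahead of labelling and not made by the tissue, read 8.41, 8.35 and 8.22 on the 3 day arrays and 7.81, 8.09 and 7.92 on the 7 day arrays. The 3 day arrays were all higher, and the part of this difference in the results was not tested. Hybridization controls read 10.78, 10.71 and 10.87 at 3 days and 10.72, 10.02 and 10.49 at 7 days, where the second 7 day array was the lowest of the 6 compared. Above the lower quartile lay 6 of 6 measured ependymoglial markers, 5 of 7 neuronal ones and 3 of 5 of motile ciliated ependyma. So did markers of other tissues, with 5 of 5 for epidermis, 4 of 4 for skeletal muscle and 3 of 3 for kidney. The 4 measured markers of skeletal muscle had a mean signal of 13.41 to 13.43 at 3 days and 13.15 to 13.21 at 7 days. Of these TNNT3 and ATP2A1 fell (-0.44 ± 0.06 and -0.43 ± 0.07), and TNNC2 and CKM were not called. Signals of different probe sets are not on a common scale and do not rank transcripts. Of 258 named genes called between 3 and 7 days, 78 had another named probe set, which was not called in at least 1 case for 38 of them and called the opposite way for 6. Probe sets not called are given beside only some of these 38 genes. In such tissue samples, fewer cells of a type and less RNA per cell cannot be told apart. Each array held a pool of 10 animals, and p-values rest on the spread between arrays of a group, estimated over all 5 groups. That spread does not separate variation between pools from variation in handling the arrays.

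**Figure D1:**
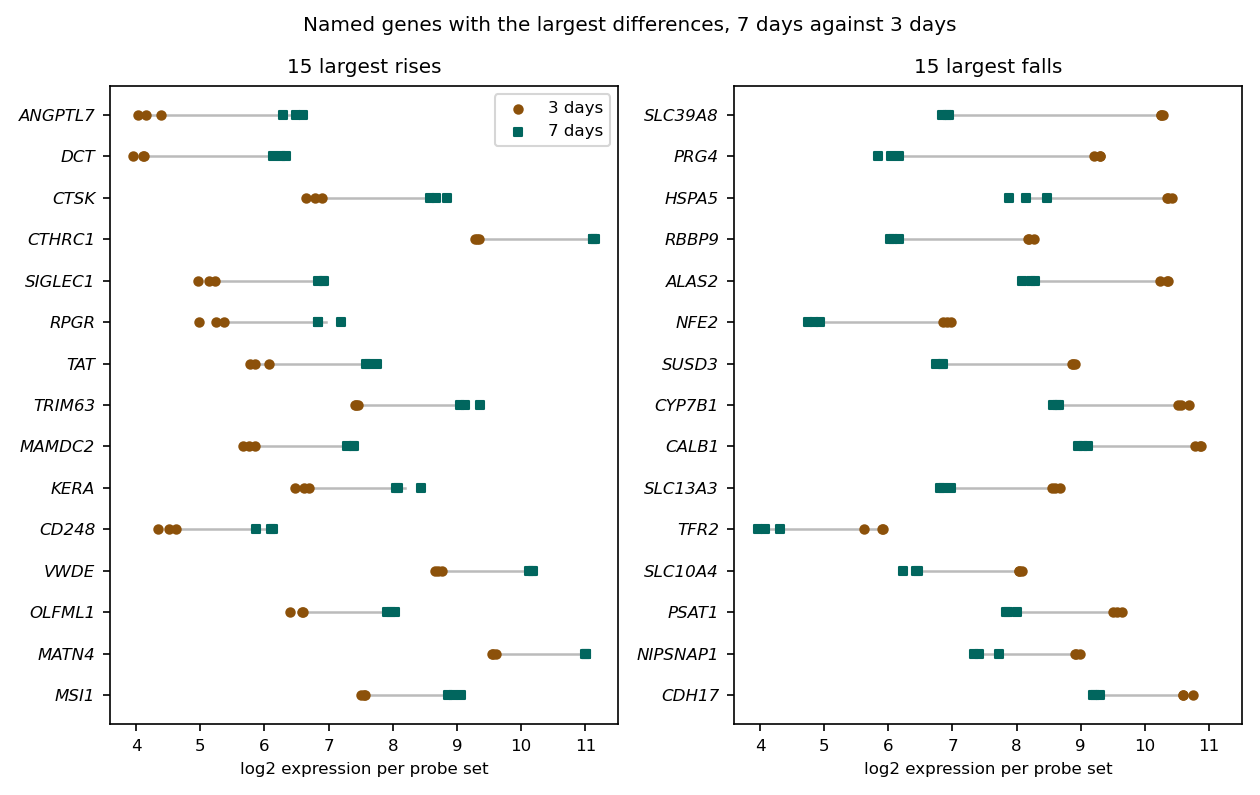
Log2 expression on each of the 3 arrays at 3 days (brown circles) and at 7 days (green squares) for the 15 named genes that rose most and the 15 that fell most; grey lines join the group means. In every gene shown the 2 groups do not overlap, as the choice of genes required, and SLC39A8 and PRG4 show the widest gaps.

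The 15 largest rises held genes of matrix, macrophages and neural progenitors. ANGPTL7, a secreted angiopoietin-like protein, read 4.03, 4.39 and 4.15 at 3 days and 6.50, 6.60 and 6.29 at 7 days, a difference of 2.27 ± 0.11 (adjusted p = 7.55e-10). Its 3 day level lay at the lower quartile of the arrays, as did that of DCT, an enzyme of melanin synthesis, which rose by 2.18 ± 0.09. CTHRC1, a secreted protein that fibroblasts of mammals make at wounds, went from 9.35, 9.31 and 9.28 to 11.12, 11.15 and 11.12, a rise of 1.82 ± 0.07 (3.53-fold). Its 7 day arrays lay far above both the 3 day arrays and the uninjured mean of 9.12. VWDE, a secreted protein expressed in the blastema of regenerating salamander limbs, stood at 8.76, 8.65 and 8.71 and then at 10.12, 10.18 and 10.19, and rose by 1.46 ± 0.04. It was 2.33 ± 0.04 above uninjured cord at 7 days, against 0.87 ± 0.04 at 3 days. The pericyte and fibroblast surface protein CD248 rose by 1.54 ± 0.15, MAMDC2 by 1.60 ± 0.11 and OLFML1 by 1.44 ± 0.07. RPGR, a protein of the ciliary base, rose by 1.76 ± 0.25 with a wider error than the others, and the tyrosine-degrading enzyme TAT by 1.76 ± 0.07. At 7 days TAT was -0.80 ± 0.07 from uninjured cord and RPGR -0.59 ± 0.25, the latter short of the test (adjusted p = 0.0526).

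The largest falls went further than the largest rises. SLC39A8, a zinc and manganese importer, read 10.28, 10.25 and 10.24 at 3 days and 6.84, 6.92 and 6.95 at 7 days, a change of -3.35 ± 0.08 (10.2-fold lower, adjusted p = 8.61e-13). The 3 arrays of each time lay close together, and the 7 day level was 0.22 ± 0.08 above the uninjured one. PRG4, the lubricin of joints and tendon sheaths, dropped from 9.20, 9.30 and 9.30 to 6.05, 5.84 and 6.17, a change of -3.25 ± 0.08. Uninjured cord had a mean of 9.72, so that PRG4 ended well under its uninjured level. RBBP9, a serine hydrolase, changed by -2.13 ± 0.06 and SUSD3 by -2.07 ± 0.05, and NIPSNAP1, a mitochondrial protein, by -1.45 ± 0.10. PSAT1, which makes serine, was already under its uninjured level at 3 days and fell further, from 9.56, 9.65 and 9.51 to 8.001, 7.86 and 7.83. That was a change of -1.67 ± 0.05, which left it -4.07 ± 0.05 from uninjured cord. SLC10A4, a transporter related to bile acid carriers, changed by -1.68 ± 0.07. The remaining members of the 15 belong to the red cell, kidney, liver and chaperone groups described further on.

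**Figure D2:**
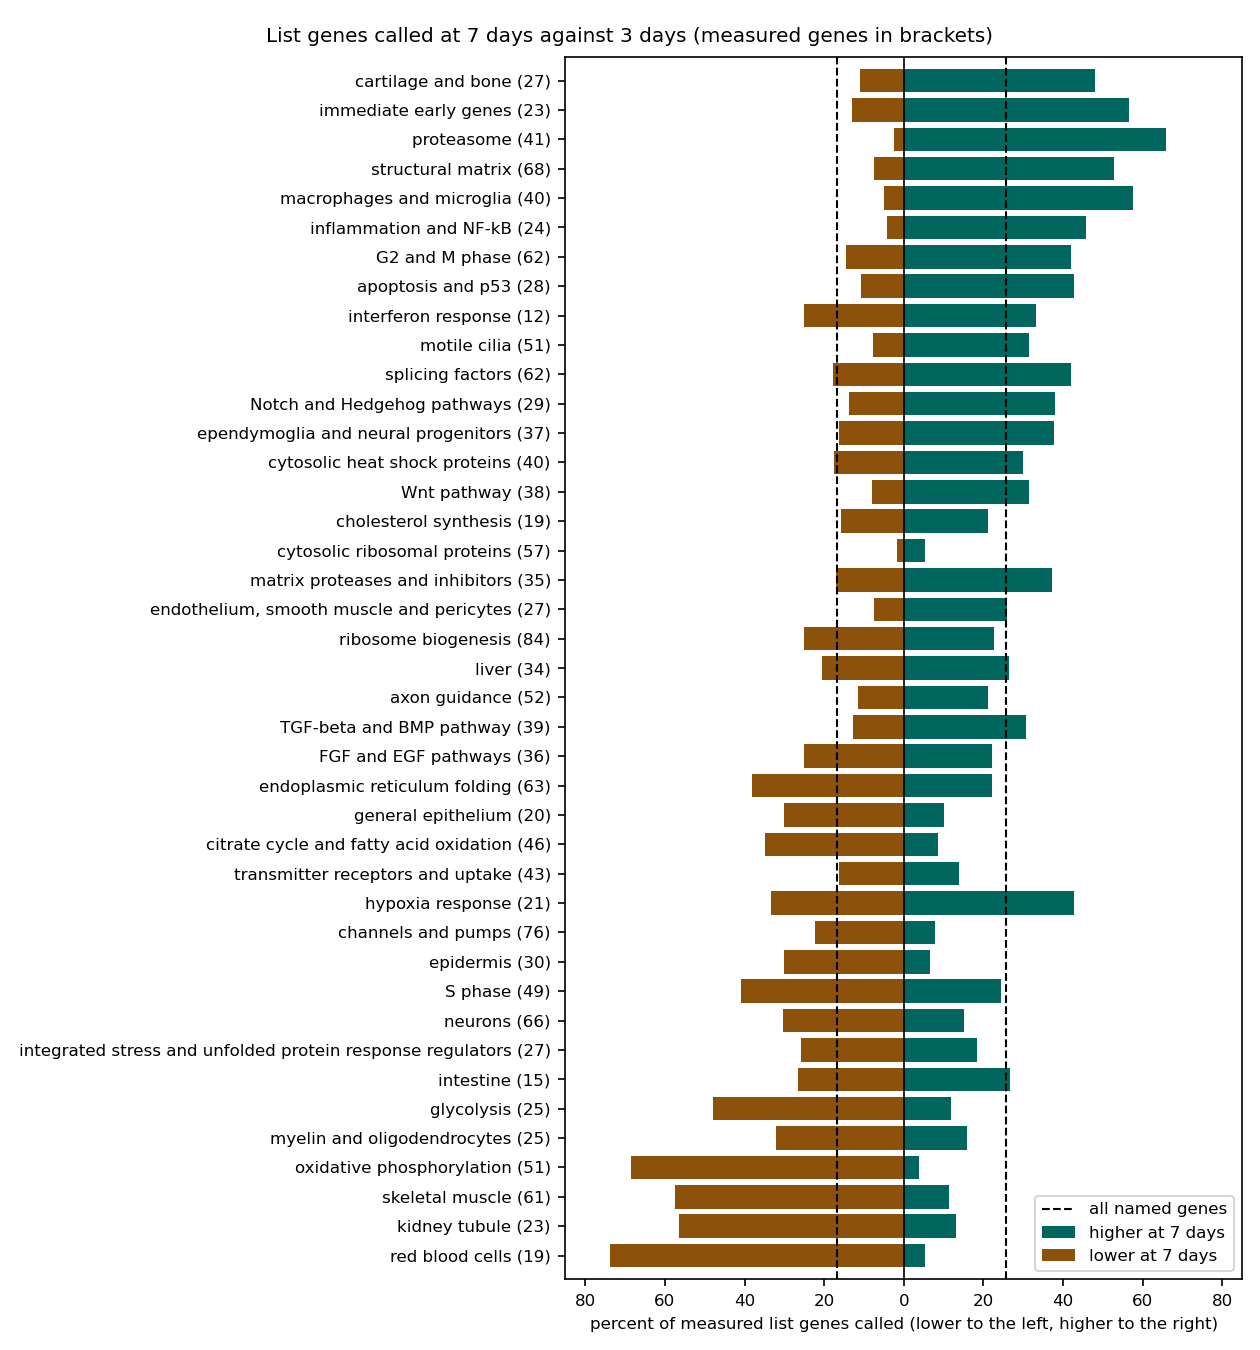
Percent of measured genes called higher (green, to the right) and lower (brown, to the left) at 7 days against 3 days in the 41 gene lists with at least 12 measured genes, ordered by the median log2 difference. Dashed lines mark the shares among all 8639 named genes, 25.6% higher and 16.8% lower; red blood cells, kidney tubule, skeletal muscle and oxidative phosphorylation pass the lower line furthest.

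Glial and neural progenitor genes rose in part. Of 37 measured genes of this kind, 14 rose and 6 fell (37.8% and 16.2%, against 25.6% and 16.8% of all named genes), with a median difference of 0.05 against 0.01 for all named genes. Without the second 7 day array 3 fell. Of the 37 genes, 22 were also in another list. GFAP, the glial filament protein, read 9.72, 9.66 and 9.61 at 3 days and 10.85, 10.75 and 10.83 at 7 days. It rose by 1.15 ± 0.05 (adjusted p = 1.56e-10) and all 3 arrays at 7 days lay above every 3 day and uninjured array, having been -0.31 ± 0.05 from uninjured cord at 3 days. The glutamate transporter SLC1A3 of astroglia and ependymoglia went from 7.35, 7.32 and 7.40 to 8.60, 8.71 and 8.56, a rise of 1.27 ± 0.06. At 3 days it had been 0.05 ± 0.06 from uninjured cord, and at 7 days it was 1.32 ± 0.06 above it. Musashi, MSI1, an RNA-binding protein of neural stem cells, read 7.55, 7.51 and 7.56 and then 9.06, 8.94 and 8.86, a rise of 1.42 ± 0.08. The filament protein VIM, at a 7 day mean of 13.92, rose by 0.34 ± 0.04. Another VIM probe set was called the opposite way (-0.32 ± 0.07) and one more rose by 1.19 ± 0.10, so the probe sets of VIM disagree. The inhibitor of differentiation ID3 rose by 0.74 ± 0.08 and the Notch target HES1 by 0.65 ± 0.08, both still under their uninjured levels at 7 days (differences of -0.69 ± 0.08 and -0.71 ± 0.08). SOX9 differed by -0.12 ± 0.10 (adjusted p = 0.357) at a level of 4.82 at 3 days, and no named probe set measured SOX2. CRYAB, a small heat shock protein of glia and muscle, fell by 1.02 on the log2 scale. The 8 ependymoglial markers, 6 of them measured, had a mean level of 8.19 to 8.22 at 3 days and of 8.70 to 8.77 at 7 days. Of the 6 measured, 4 rose, with GFAP and SLC1A3 changing most. SOX9 and FABP7 (-0.05 ± 0.11) were not called.

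Motile cilia, which ependymal cells carry into the central canal, gave 16 higher and 4 lower of 51 measured genes (31.4% and 7.84%), a share of rises close to the background. The sperm and cilia proteins TSGA10 and ROPN1L rose by 0.68 ± 0.11 and 0.65 ± 0.07, and MNS1, which helps assemble the axoneme, by 0.51 ± 0.08. CAPSL changed by -0.64 ± 0.08, while another of its probe sets rose by 0.54 ± 0.11.

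Falls outnumbered rises among neuronal and myelin genes, though most genes of both lists were not called. Of 66 neuronal genes 10 rose and 20 fell (15.2% and 30.3%), with a median of -0.09. The light neurofilament NEFL read 9.04, 8.92 and 8.94 at 3 days and 8.05, 8.01 and 8.02 at 7 days, a change of -0.94 ± 0.07. Its 7 day level differed from the uninjured one by -0.06 ± 0.07 (adjusted p = 0.491), and MAPT, the microtubule protein tau, followed the same course with -1.21 ± 0.09 between the times and -0.07 ± 0.09 (adjusted p = 0.542) from uninjured cord. The axonal adhesion protein CNTN1 changed by -0.98 ± 0.08 to a 7 day level of 3.93, under the lower quartile of the arrays. STMN2, a tubulin regulator of growing axons and a neuronal marker, fell by 0.16 on the log2 scale (adjusted p = 0.00648). ELAVL2, an RNA-binding protein of differentiating neurons, went from 6.58, 6.50 and 6.48 to 7.27, 7.39 and 7.18, a rise of 0.76 ± 0.07. The microtubule protein DCX of migrating neuroblasts rose by 0.76 ± 0.09 and the neuronal tubulin TUBB3 by 0.28 ± 0.06. GAP43, the growth cone protein, read 8.73, 8.66 and 8.62 at 3 days and 8.95, 8.79 and 8.84 at 7 days. Its arrays did not overlap, yet the difference of 0.19 ± 0.09 did not pass the test (adjusted p = 0.127).

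Of 25 genes of myelin and oligodendrocytes 4 rose and 8 fell (16% and 32%). Myelin basic protein, MBP, read 12.38, 12.41 and 12.26 at 3 days and 10.996, 10.91 and 11.005 at 7 days, and changed by -1.38 ± 0.05 (adjusted p = 3.28e-11). All 7 day arrays lay well under the 3 day arrays and near the uninjured mean of 11.12, and a second MBP probe set changed by -1.13 ± 0.06. UGT8, which makes the main glycolipid of myelin, changed by -1.28 ± 0.12 and CLDN11, the tight junction protein between myelin wraps, by -0.89 ± 0.10. GPM6A, a neuronal relative of the myelin proteolipid, changed by -0.57 ± 0.09. PDGFRA, the receptor that marks oligodendrocyte precursors and many fibroblasts, rose by 0.46 ± 0.07. Only MBP and CNP of the 7 oligodendrocyte markers had a named probe set, and CNP was not called.

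Among 76 ion channels and pumps 6 rose and 17 fell (7.89% and 22.4%). Some proteins of this class, though not all, set the membrane potential, whose shift after injury the study was about. The sodium bicarbonate cotransporter SLC4A4 read 9.18, 9.14 and 9.17 and then 7.84, 7.93 and 7.91, a change of -1.27 ± 0.06, and remained 1.82 ± 0.06 above uninjured cord. The calcium pump ATP2A2 changed by -0.79 ± 0.06, and the sodium, potassium and chloride cotransporter SLC12A2 by -0.63 ± 0.08. The other named changes were rises. The potassium channel KCNJ10 of glia rose by 0.44 ± 0.13, the calcium-activated potassium channel KCNN2 by 0.44 ± 0.11 and the cation channel TRPC1 by 0.45 ± 0.06. Without the second 7 day array the KCNJ10 call was lost. The gap junction protein GJA1 differed by -0.18 ± 0.07 (adjusted p = 0.0545). Transmitter receptors and transporters gave 6 rises and 7 falls among 43 genes (14% and 16.3%). The ATP-gated channel P2RX7 of immune cells and glia rose by 0.83 ± 0.07, and the GABA receptor subunit GABRB2 changed by -0.55 ± 0.13. For axon guidance 11 of 52 genes rose and 6 fell (21.2% and 11.5%). This list and that of transmitter receptors and transporters were under the shares of all named genes, 25.6% and 16.8%, in each direction. The semaphorin SEMA3D was at 0.65 ± 0.06, the ephrin receptor EPHA2 at 0.72 ± 0.08 and its epithelial relative EPHA1 at -0.92 ± 0.05.

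**Figure D3:**
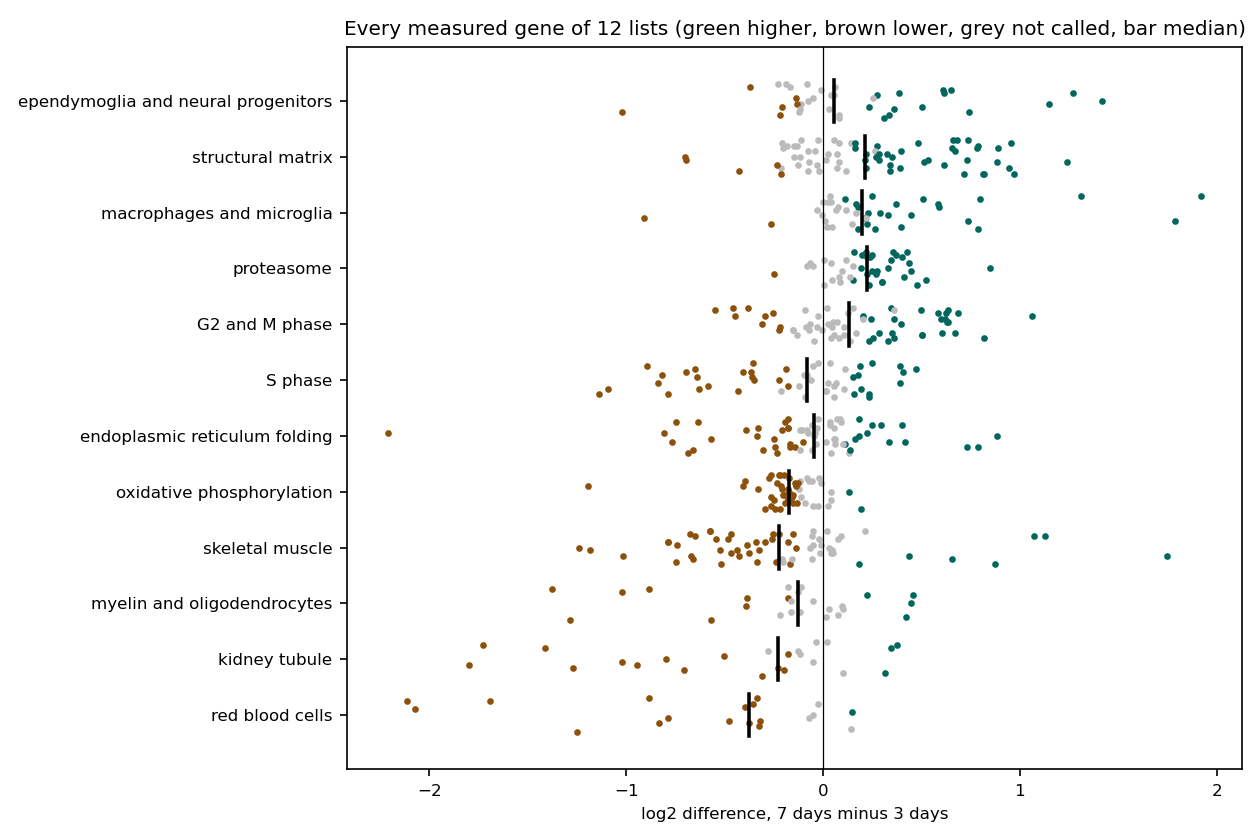
Log2 difference (7 days minus 3 days) of every measured gene in 12 gene lists, 1 point per gene; green points were called higher, brown points lower and grey points neither, and black bars mark the list medians. The proteasome and the respiratory chain form narrow clusters on opposite sides of 0, while red cell, kidney and myelin genes reach far to the left.

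Cell cycle genes were counted by phase. Of 62 genes of G2 and mitosis 26 rose and 9 fell (41.9% and 14.5%, median 0.13), whereas of 49 genes of DNA replication and nucleotide supply 12 rose and 20 fell (24.5% and 40.8%, median -0.08). The difference between the 2 lists was not tested. KIF15, a spindle motor, read 6.55, 6.74 and 6.67 at 3 days and 7.57, 7.89 and 7.70 at 7 days, a rise of 1.06 ± 0.09. The cyclin CCNB1, which drives entry into mitosis, went from 7.53, 7.38 and 7.62 to 8.07, 8.20 and 8.07, a rise of 0.60 ± 0.06 that left it -0.83 ± 0.06 from its uninjured level. Its 2 other probe sets rose by 0.46 ± 0.09 and 0.29 ± 0.09. The mitotic kinase AURKA rose by 0.63 ± 0.06, the checkpoint kinases BUB1 and BUB1B by 0.69 ± 0.06 and 0.67 ± 0.06, and the condensin subunit NCAPH by 0.82 ± 0.06. At 7 days these 6 genes were all still under their uninjured levels, from -0.54 ± 0.06 for BUB1B to -1.11 ± 0.06 for AURKA.

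The 6 largest falls of the S phase list included 3 subunits of the minichromosome maintenance helicase, which opens the replication origins. MCM3 read 9.58, 9.59 and 9.65 and then 8.42, 8.63 and 8.50, a change of -1.09 ± 0.06. Its 3 day arrays were near the uninjured mean of 9.43 and its 7 day arrays lay -0.91 ± 0.06 from it, while a second, dimmer probe set differed by -0.15 ± 0.10 and was not called. MCM6 and MCM7 changed by -0.82 ± 0.06 and -0.79 ± 0.05, with a dimmer MCM7 probe set at 0.03 ± 0.14, not called. The loading factor CDC6 changed by -0.89 ± 0.08 and the S phase cyclin CCNE2 by -0.84 ± 0.09. UHRF1, which helps to copy DNA methylation onto new strands, had the largest fall of the list, from 9.75, 9.74 and 9.75 to 8.57, 8.66 and 8.60 (-1.14 ± 0.05, adjusted p = 2.60e-10). The sliding clamp PCNA changed by -0.36 ± 0.05, though its second probe set differed by -0.01 ± 0.06, and the proliferation marker MKI67 by -0.22 ± 0.07 (adjusted p = 0.0134). MKI67 lost its call when the third 3 day array or the first 7 day array was left out. The topoisomerase TOP2A differed by 0.01 ± 0.08 (adjusted p = 0.914).

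Matrix genes rose in more than their background share. Of 68 collagens and other structural matrix genes 36 rose and 5 fell (52.9% and 7.35%), with a median of 0.21. The falls numbered 8 with cyclic loess and 9 with median centring. The median was 0.14 with loess, 0.15 with probe sets averaged per gene and 0.27 without the dimmest probe sets. The fibril-associated collagen COL12A1 read 9.35, 9.42 and 9.34 at 3 days and 10.28, 10.82 and 10.72 at 7 days, a rise of 1.24 ± 0.17. Its first 7 day array was the lowest of that group and still above every 3 day array. POSTN, periostin, which fibroblasts of healing tissue secrete, went from 10.79, 10.86 and 10.87 to 11.80, 11.65 and 11.72, a rise of 0.89 ± 0.05 to 1.36 ± 0.05 above uninjured cord. FBLN1 rose by 0.95 ± 0.05, the short-chain collagen COL8A1 by 0.95 ± 0.07 and SPON1, a floor plate protein that guides axons, by 0.89 ± 0.06. EFEMP1 rose by 0.97 ± 0.05 and fibronectin, FN1, by 0.39 ± 0.06, and each had another probe set called lower (-0.21 ± 0.06 for EFEMP1 and -0.33 ± 0.10 for FN1, the latter near background). Tenascin C, TNC, had reached a level of 12.44 by 3 days and differed by 0.05 ± 0.05 (adjusted p = 0.394). The 7 day mean was slightly higher, by less than the test required.

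The 27 cartilage, bone and tendon genes had 13 rises and 3 falls (48.1% and 11.1%, median 0.27), with 1 fall without the second 3 day or the third 7 day array. COL2A1, the main collagen of cartilage, read 10.90, 11.01 and 11.05 and then 12.03, 12.02 and 11.97, a rise of 1.02 ± 0.05, while a dimmer probe set differed by 0.11 ± 0.14 and was not called. Its difference from uninjured cord was -1.28 ± 0.05 at 3 days and -0.26 ± 0.05 at 7 days. MATN4, an adaptor protein of cartilage and other matrices, rose by 1.44 ± 0.06, COL9A1 by 0.96 ± 0.05, MATN2 by 0.75 ± 0.07 and the small proteoglycan KERA by 1.60 ± 0.11. At 7 days all of these but MATN2 were still under uninjured cord, with KERA at -1.71 ± 0.11. PRG4, the largest fall among them, was a member of the same list. Of the 6 cartilage markers 5 were measured and 3 of these rose, with a mean level of 7.84 to 7.87 on the 3 day arrays and of 8.32 to 8.37 on the 7 day arrays. MATN1, a defining cartilage marker, lay under the lower quartile at both times. How far cartilage in the sample contributed to the matrix result was not tested.

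Enzymes that cut matrix, and their inhibitors, gave 13 rises and 6 falls among 35 genes (37.1% and 17.1%). The median of 0.02 turned negative under median centring, and 3 fell without the second 7 day array. Cathepsin K, CTSK, which degrades collagen in osteoclasts and macrophages, read 6.79, 6.65 and 6.90 at 3 days and 8.85, 8.68 and 8.58 at 7 days. That was a rise of 1.92 ± 0.07 (adjusted p = 6.93e-11), with 1.85 ± 0.08 in a second probe set, and it lifted CTSK from under to above its uninjured mean of 7.71. The secreted serpins SERPINE2 and SERPINF1 rose by 0.74 ± 0.04 and 0.60 ± 0.04, the membrane-bound metalloproteinase inhibitor RECK by 0.60 ± 0.05, and the procollagen protease ADAMTS2 by 0.54 ± 0.11. TIMP1, an inhibitor of matrix metalloproteinases, went the other way, from 11.57, 11.59 and 11.52 to 10.89, 10.85 and 10.89 (-0.69 ± 0.04). MMP9 differed by -0.09 ± 0.14 (adjusted p = 0.639), with overlapping arrays.

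Rises outnumbered falls among macrophage genes. Of 40 measured genes of macrophages and microglia 23 rose and 2 fell (57.5% and 5%, median 0.20). SIGLEC1, a receptor for sialic acid on tissue macrophages, read 5.22, 5.13 and 4.96 at 3 days and 6.91, 6.93 and 6.84 at 7 days. It rose by 1.79 ± 0.09 from a level -1.88 ± 0.09 from uninjured cord to one that differed by -0.09 ± 0.09 (adjusted p = 0.424). The scavenger receptor MARCO went from 4.26, 4.24 and 4.56, near background, to 5.79, 5.91 and 5.29, a rise of 1.31 ± 0.14. AIF1, the calcium-binding protein also known as Iba1 and used to stain microglia, read 9.35, 9.37 and 9.44 at 3 days and 10.17, 10.20 and 10.17 at 7 days and rose by 0.80 ± 0.05. The endosomal RNA sensor TLR7 rose by 0.79 ± 0.07. ALOX5, the first enzyme of leukotriene synthesis, was an exception and changed by -0.91 ± 0.05, while its other probe set differed by -0.17 ± 0.07 and was not called. Of 7 macrophage markers 5 were measured, with mean levels of 7.21 to 7.25 at 3 days and 7.55 to 7.68 at 7 days, and 3 of them rose. The leukocyte marker PTPRC lay under the lower quartile of the arrays at both times.

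Inflammatory and NF-kB genes had 11 rises and 1 fall among 24 (45.8% and 4.17%). The prostaglandin E synthase PTGES went from 7.999, 7.99 and 8.05 to 9.47, 9.29 and 9.36, a rise of 1.36 ± 0.06. The chemokine CXCL12, which draws progenitors and leukocytes, rose by 1.01 ± 0.10 and its receptor CXCR4 by 0.79 ± 0.06, both to above their uninjured levels (1.47 ± 0.10 and 0.62 ± 0.06). The adaptor TRAF6 rose by 0.40 ± 0.08. STAT3 and IRAK4 rose by 0.37 ± 0.11 and 0.34 ± 0.10, and each lost its call when the first 7 day array was left out, as IRAK4 did without the second 3 day array. The 3 other STAT3 probe sets were not called. Interferon response genes gave 4 rises and 3 falls of 12 (33.3% and 25%). IRF8, a factor of the macrophage lineage, was at 0.37 ± 0.05 and IRF1 at -0.53 ± 0.05. Of the 9 measured lymphocyte genes 2 rose and 1 fell (22.2% and 11.1%), both under the shares of all named genes. IGLL1, of the surrogate light chain and similar to immunoglobulin light chains, rose by 0.63 ± 0.06 to 2.47 ± 0.06 above uninjured cord. The other rise was that of CD247, a chain of the T cell receptor complex, by 0.50 ± 0.06.

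Red cell genes fell in the largest share of any list drawn. Of 19 measured genes of the red cell lineage 1 rose and 14 fell (5.26% and 73.7%, median -0.37). ALAS2, the first enzyme of heme synthesis in red cells, read 10.24, 10.36 and 10.34 at 3 days and 8.29, 8.09 and 8.23 at 7 days. The change of -2.11 ± 0.06 (adjusted p = 1.34e-12) took it from 1.54 ± 0.06 above uninjured cord to -0.57 ± 0.06 from it. NFE2, a transcription factor of red cells and platelets, went from 6.92, 6.86 and 6.98 to 4.75, 4.85 and 4.94 (-2.07 ± 0.06), and the iron sensor TFR2 from 5.91, 5.62 and 5.91 to 4.08, 3.96 and 4.32 (-1.69 ± 0.12). The 7 day values of TFR2 lay at the lower quartile. The mitochondrial iron importer SLC25A37, the transporter ABCB10 and the heme synthesis enzyme CPOX changed by -1.25 ± 0.08, -0.88 ± 0.08 and -0.83 ± 0.04. Only 2 of 6 red cell markers, ALAS2 and SLC4A1, had a named probe set, SLC4A1 was not called, and no globin marker was measured. Their mean was 7.41 to 7.47 at 3 days and 6.28 to 6.45 at 7 days. The part of blood left in the samples was not tested.

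The 61 measured genes of skeletal muscle included 35 that fell and 7 that rose (57.4% and 11.5%, median -0.22). The sarcomeric actinin ACTN2 read 9.25, 9.22 and 9.14 and then 7.98, 8.10 and 7.98, a change of -1.19 ± 0.09. MYH7B, a slow-type myosin, changed by -1.24 ± 0.08 and RYR3, a calcium release channel, by -1.02 ± 0.09, and all 3 stayed above uninjured cord, ACTN2 by 2.45 ± 0.09. Of the 7 rises, 3 are named here. TRIM63, a ubiquitin ligase that breaks down muscle protein in wasting, went from 7.41, 7.45 and 7.43 to 9.35, 9.05 and 9.12, a rise of 1.75 ± 0.13. The muscle differentiation factor MYOG read 6.50, 6.57 and 6.58 at 3 days and 7.79, 7.57 and 7.67 at 7 days and rose by 1.13 ± 0.09, to 1.83 ± 0.09 above uninjured cord. ANKRD2, a stretch-response protein of muscle, rose by 1.07 ± 0.06 and was still -1.77 ± 0.06 from its uninjured level. Vessel wall genes gave 7 rises and 2 falls among 27 (25.9% and 7.41%). The endothelial proteins VWF and PECAM1 were at 0.53 ± 0.05 and 0.36 ± 0.09. The smooth muscle proteins TAGLN and MYH11 were at 0.43 ± 0.06 and -0.45 ± 0.05.

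The largest fall among protein folding genes was in a single chaperone. HSPA5, the main chaperone of the endoplasmic reticulum, read 10.36, 10.34 and 10.43 at 3 days and 8.47, 7.88 and 8.15 at 7 days, a change of -2.21 ± 0.18 (4.63-fold lower, adjusted p = 1.48e-07). Its 7 day arrays spread more widely than those of most genes named here, yet all lay far under the 3 day arrays and the uninjured mean of 11.21. HSP90B1, the other abundant chaperone of the same compartment, differed by -0.12 ± 0.08 with overlapping arrays (adjusted p = 0.27). Of 63 endoplasmic reticulum folding genes 14 rose and 24 fell (22.2% and 38.1%). Calnexin, CANX, changed by -0.75 ± 0.07, the cochaperone DNAJC10 by -0.81 ± 0.06 and CRELD2 by -0.77 ± 0.05. SERPINH1, the chaperone dedicated to collagen, went the other way with a rise of 0.79 ± 0.05, as did the retrieval receptor KDELR1 with 0.88 ± 0.09. The collagen-modifying enzyme P4HA1, counted here in the hypoxia list, rose by 0.69 ± 0.07. Among 27 regulators and targets of the unfolded protein and integrated stress responses 5 rose and 7 fell (18.5% and 25.9%). The stress sensor ATF6 changed by -0.56 ± 0.08, the phosphatase subunit PPP1R15B by -0.63 ± 0.07 and the folate enzyme MTHFD2 by -0.79 ± 0.04, and NUPR1 rose by 0.72 ± 0.05.

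Cytosolic and mitochondrial chaperones gave 12 rises and 7 falls of 40 (30% and 17.5%). HSP90AA1, the inducible cytosolic HSP90, changed by -1.04 ± 0.06 and the mitochondrial chaperonin HSPD1 by -0.66 ± 0.04, while the small heat shock protein HSPB8 rose by 0.77 ± 0.06.

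Most measured proteasome genes rose. Of 41 measured genes 27 rose and 1 fell (65.9% and 2.44%, median 0.22). The catalytic-core subunits PSMB4 and PSMA1 rose by 0.48 ± 0.05 and 0.45 ± 0.06 (a second PSMA1 probe set differed by 0.00 ± 0.07 and was not called). PSMD9 and PSMD10, which help to assemble the cap, rose by 0.52 ± 0.05 and 0.43 ± 0.05, and the assembly factor POMP by 0.43 ± 0.05. PSMF1, a proteasome inhibitor, had the largest rise of the list, from 4.49, 4.63 and 4.52 to 5.50, 5.36 and 5.31 (0.85 ± 0.09). Splicing factors gave 26 rises and 11 falls of 62 (41.9% and 17.7%), among them the RNA-binding proteins HNRNPD (0.72 ± 0.06) and HNRNPH3 (0.71 ± 0.06), with PRPF39 at -0.60 ± 0.05. The falls among splicing factors numbered 7 without the first 3 day array and 6 without the third 7 day array.

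Ribosome genes moved little. Of 57 cytosolic ribosomal proteins 3 rose and 1 fell (5.26% and 1.75%), and the median of 0.03 turned negative under median centring. RPL34 rose by 0.52 ± 0.06 and RPS29 changed by -0.47 ± 0.05. The number of rises depended on the processing: it was 11 with an intensity trend, 5 with probe sets averaged per gene and 1 with loess. The probe sets had a median signal of 13.81 at 3 days, near the top of the scale. Factors that build ribosomes were divided, with 19 rises and 21 falls of 84 (22.6% and 25%). Their median of 0.01 turned negative under both other scalings. With probe sets averaged per gene the rises numbered 29. The RNA exosome subunit EXOSC2 read 7.91, 7.82 and 7.89 and then 6.75, 6.57 and 6.68 (-1.21 ± 0.06), POLR1B of RNA polymerase I changed by -0.64 ± 0.10 and the nucleolar protein NOLC1 by -0.61 ± 0.06, while the methyltransferase NOP2 rose by 0.75 ± 0.06 in one probe set and differed by -0.08 ± 0.06, not called, in another. Of 5 measured tRNA synthetase genes 1 rose and 3 fell (20% and 60%). FARSB changed by -0.66 ± 0.06 and the complex member EEF1E1 by -0.43 ± 0.05. AIMP1, another member of the complex, rose by 0.20 ± 0.05.

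Falls outnumbered rises among genes of energy supply. Of 51 respiratory chain and ATP synthase genes 2 rose and 35 fell (3.92% and 68.6%, median -0.17). The electron carrier CYCS read 11.40, 11.40 and 11.39 at 3 days and 10.91, 11.09 and 10.97 at 7 days (-0.41 ± 0.05). Of the complex I subunits, NDUFA7 changed by -0.40 ± 0.05, NDUFB11 by -0.33 ± 0.06 and NDUFB1 by -1.19 ± 0.11, the last from 5.94, 6.30 and 6.18 to 4.90, 5.05 and 4.90 against an uninjured mean of 3.99. The citrate cycle and fatty acid oxidation contributed 16 falls and 4 rises from 46 genes (34.8% and 8.7%). The acyl-CoA dehydrogenase ACAD11 changed by -1.14 ± 0.06 and OGDH by -0.49 ± 0.07. Glycolysis contributed 12 falls and 3 rises from 25 genes (48% and 12%). The lactate transporter SLC16A1 went from 10.33, 10.32 and 10.32 to 9.37, 9.41 and 9.37 (-0.94 ± 0.04), with a dimmer probe set at 0.15 ± 0.07, not called. The phosphofructokinase PFKP changed by -0.55 ± 0.06, and its other probe set differed by -0.01 ± 0.09, not called. PFKFB1, a regulatory kinase of glycolysis, rose by 0.83 ± 0.04. Muscle is rich in mitochondria, and the part of muscle RNA in these falls was not tested.

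Hypoxia genes were mixed, with 9 rises and 7 falls among 21 (42.9% and 33.3%). Heme oxygenase, HMOX1, which degrades heme, read 10.59, 10.60 and 10.63 at 3 days and 11.73, 11.65 and 11.69 at 7 days, a rise of 1.08 ± 0.04. NDRG1 changed by -0.81 ± 0.08 and remained 2.19 ± 0.08 above uninjured cord, though its other probe set differed by -0.21 ± 0.20 and was not called. The oxygen-regulated transcription factors HIF1A and HIF3A changed by -0.46 ± 0.10 and -0.47 ± 0.09. Sterol synthesis gave 4 rises and 3 falls of 19 (21.1% and 15.8%), with FDPS at 0.43 ± 0.06, still -1.86 ± 0.06 from uninjured cord. The falls numbered 1 without the first 7 day array, 6 with median centring and 5 with 1 probe set per gene.

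**Figure D4:**
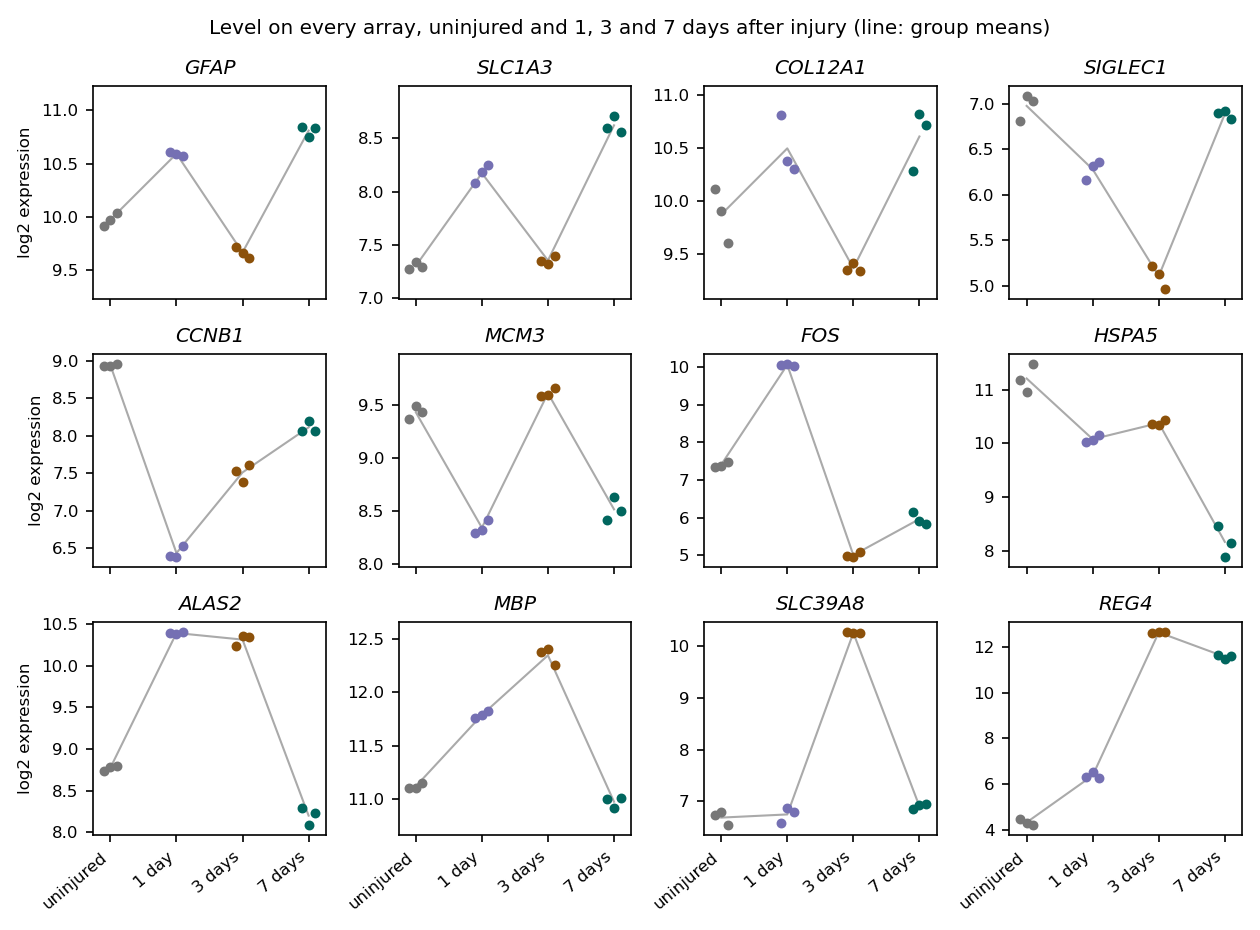
Log2 expression on every array of 12 genes in uninjured cord and 1, 3 and 7 days after injury, with 3 arrays of pooled tissue per time. Lines run through the group means, and each gene has an axis of its own. GFAP, SLC1A3, COL12A1 and SIGLEC1 were lowest or near their lowest at 3 days and higher at 7 days, while SLC39A8, MBP and REG4 were highest at 3 days.

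The step from 3 to 7 days was set beside the levels in uninjured cord and at 1 day. GFAP had a mean of 9.97 in uninjured cord, 10.59 at 1 day, 9.67 at 3 days and 10.81 at 7 days, so that its 3 day level was the lowest of the 4. FOS stood at 10.06 at 1 day, 5.001 at 3 days and 5.96 at 7 days. CCNB1 was lowest at 1 day (6.44) and higher at each later time (7.51 and 8.11). MCM3 followed another order, with 8.34 at 1 day, 9.61 at 3 days and 8.52 at 7 days. SLC39A8 was high at 3 days alone among these 4 groups, its 1 day mean being 6.75, and REG4 went from 6.39 at 1 day to 12.62 at 3 days. Against uninjured cord 61.9% of the named genes were called at 3 days (29.4% higher, 32.5% lower) and 60.3% at 7 days (31.1% higher, 29.2% lower), and over all probe sets these shares were 60.0% (29.8% and 30.2%) and 57.7% (28.8% and 28.9%). Of the 51 respiratory chain genes 30 were above uninjured cord at 3 days and 13 at 7 days, and of the 19 red cell genes 14 and 6. The 7 day counts of these lists were near or under the share of all named genes. Neuronal genes above uninjured cord numbered 46 of 66 at 3 days and 32 at 7 days. Macrophage genes under uninjured cord numbered 14 of 40 at 3 days, near the share of all named genes, and 8 at 7 days. Those above it numbered 14 at 3 days and 18 at 7 days. Proteasome genes under uninjured cord numbered 33 and 24 of 41. In contrast, the count of mitotic genes under uninjured cord was 53 of 62 at each time, and that of muscle genes above it 53 of 61. Each time was counted on its own, and whether the same genes were called at both was not tested. Both counts of each pair use the same uninjured arrays.

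Some genes known from kidney, liver and intestine were among the steepest falls, while TAT of the liver list was among the largest rises. Of 23 measured kidney genes 3 rose and 13 fell (13% and 56.5%, median -0.23). The calcium-binding protein CALB1, of the distal tubule and of some neurons, read 10.86, 10.87 and 10.78 at 3 days and 9.11, 9.04 and 8.96 at 7 days (-1.80 ± 0.06). The dicarboxylate transporter SLC13A3 went from 8.60, 8.68 and 8.55 to 6.86, 6.98 and 6.81 (-1.73 ± 0.10), and its relative SLC13A2 changed by -1.02 ± 0.08. The glucose transporter SLC2A2, of liver, kidney and intestine, changed by -0.95 ± 0.08. Cadherin 17, CDH17, named for liver and intestine, fell from 10.60, 10.75 and 10.60 to 9.29, 9.23 and 9.19 (-1.41 ± 0.06). None of these had returned to the uninjured level at 7 days: CDH17 was 4.41 ± 0.06 above it, SLC13A3 3.22 ± 0.10, SLC2A2 3.00 ± 0.08 and CALB1 1.28 ± 0.06. Of 6 kidney markers 3 were measured, with mean levels of 7.54 to 7.71 at 3 days and 7.45 to 7.66 at 7 days, which overlap. Among them UMOD, a protein of the loop of Henle, rose and LRP2 and CUBN, the endocytic receptors of the proximal tubule, fell.

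For the liver list 9 of 34 genes rose and 7 fell, near the background shares, and none of its 6 defining markers had a named probe set. CYP7B1, an oxysterol hydroxylase, read 10.56, 10.69 and 10.52 and then 8.66, 8.62 and 8.56 (-1.97 ± 0.07), and RGN, a calcium-binding lactonase, went from 12.56, 12.44 and 12.60 to 11.82, 11.65 and 11.74 (-0.80 ± 0.07). TAT rose by 1.76 ± 0.07 and APOH, a plasma protein, by 1.17 ± 0.05. Among 15 intestinal genes 4 rose and 4 fell (26.7% each). The secreted lectin REG4 read 12.59, 12.64 and 12.62 at 3 days and 11.62, 11.45 and 11.61 at 7 days, a fall of 1.06 on the log2 scale (adjusted p = 4.98e-08). All 7 day arrays lay under all 3 day arrays, and both were far above the uninjured mean of 4.35. The brush border proteins VIL1 and PLS1 changed by -0.59 ± 0.04 and -0.78 ± 0.07, and the mucin MUC2 rose by 0.68 ± 0.05, with another probe set called lower (-0.43 ± 0.07). Of 6 intestinal markers 3 were measured, with mean levels of 8.88 to 9.06 at 3 days and 8.88 to 8.92 at 7 days, which overlap. VIL1 fell as given, while the lectin LGALS4 rose by 0.33 ± 0.05. CDX2, a defining intestinal factor, was not called and lay under the lower quartile at both times. The part of tissue other than cord in these results was not tested.

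Among 30 epidermal genes there were 9 falls and 2 rises (30% and 6.67%). Among 20 genes shared by many epithelia there were 6 falls and 2 rises (30% and 10%). The desmosome linkers EVPL and PPL changed by -0.58 ± 0.05 and -0.39 ± 0.05. The epithelial cadherin CDH1 read 10.58, 10.63 and 10.56 and then 10.08, 9.97 and 10.02 (-0.57 ± 0.06), and of its 6 other probe sets 2 were called lower and 1 higher (0.49 ± 0.08). The tight junction protein CLDN3, with an uninjured mean of 10.00, rose by 0.34 ± 0.07 from 6.30 at 3 days and stayed -3.35 ± 0.07 from uninjured cord. Mean levels of the 5 measured epidermal markers were 8.70 to 8.78 at 3 days and 8.64 to 8.74 at 7 days.

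Early response genes, which cells switch on within minutes of a stimulus, were higher at 7 than at 3 days in 13 of 23 cases and lower in 3 (56.5% and 13%). The transcription factor FOS read 4.97, 4.95 and 5.08 at 3 days and 6.14, 5.91 and 5.82 at 7 days. Its rise of 0.96 ± 0.07 (adjusted p = 9.76e-08) left it -1.45 ± 0.07 from uninjured cord, where the mean was 7.40. JUN, its partner, rose by 0.75 ± 0.07, MYC, a driver of growth, by 0.68 ± 0.07, and KLF2, a factor of vessel lining and resting lymphocytes, by 0.69 ± 0.05. The small GTPase RHOB had the largest rise of the list, from 6.41, 6.50 and 6.40 to 7.70, 7.43 and 7.67 (1.17 ± 0.08). All 5 were under their uninjured levels at 7 days, with JUN at -0.41 ± 0.07 and MYC at -1.35 ± 0.07. ZFP36, which speeds the decay of cytokine mRNAs, changed by -1.20 ± 0.22 with a wide error. In the p53 and cell death list 12 of 28 genes rose and 3 fell (42.9% and 10.7%). The falls numbered 5 with median centring and without the third 3 day array. The p53 targets TP53INP1, PHLDA3 and SESN1 rose by 1.23 ± 0.08, 1.02 ± 0.07 and 0.90 ± 0.06, and all were above uninjured cord at 7 days, SESN1 by 1.92 ± 0.06. TP53INP1 read 7.39, 7.16 and 7.49 and then 8.50, 8.69 and 8.54, with no overlap.

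Genes of signalling pathways that pattern the cord were counted by list, beside 25.6% higher and 16.8% lower among all named genes. Differences between these lists, or from those shares, were not tested. Of 38 Wnt pathway genes 12 rose and 3 fell (31.6% and 7.89%), or 5 fell with loess and with median centring. The secreted inhibitors SFRP4, SFRP2 and DKK3 rose by 0.89 ± 0.10, 0.56 ± 0.04 and 0.50 ± 0.09, from levels already above uninjured cord at 3 days. PORCN, which prepares Wnt ligands for secretion, rose by 0.69 ± 0.06. SFRP2 stood at 11.60, 11.55 and 11.67 and then at 12.22, 12.14 and 12.15, with no overlap. For TGF-beta and BMP 12 of 39 genes rose and 5 fell (30.8% and 12.8%). CHRDL1, a BMP antagonist, went from 8.74, 8.67 and 8.76 to 9.72, 9.98 and 9.91 (1.15 ± 0.07), while a dimmer probe set differed by 0.02 ± 0.10 and was not called. The latency protein LTBP3 rose by 0.82 ± 0.09, and the receptors BMPR1B and TGFBR1 by 0.63 ± 0.07 and 0.47 ± 0.04. Notch and Hedgehog signalling gave 11 rises and 4 falls from 29 genes (37.9% and 13.8%), and 10 of the 29 were also in another list. The Notch targets HEY1 and HEY2 were at 0.61 ± 0.07 and 0.45 ± 0.08. The rises numbered 7 without the second 7 day array, and the falls numbered 2 without any 1 of the other 5 arrays, with a replicate block and with the compared arrays alone. In the FGF and EGF list 8 of 36 rose and 9 fell (22.2% and 25%). The EGF receptor ligands EREG and AREG changed by -0.82 ± 0.05 and -0.50 ± 0.05 and the receptor's feedback inhibitor ERRFI1 by -0.77 ± 0.09, while the FGF target ETV4 rose by 0.49 ± 0.08.

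Probe sets with no gene name made up 9084 of those tested, and 1660 of them were higher and 1974 lower. One of them, axo31384-f_s_at, read 10.87, 10.50 and 10.88 at 3 days and 3.14, 3.06 and 3.27 at 7 days, a difference of -7.59 ± 0.11 that exceeded that of every named gene. It was near background in all other groups, with a mean of 2.97 in uninjured cord, so the high signal was found in the 3 day arrays alone. Next among the falls was axo22833-f_at at -3.46 ± 0.11. The largest rises without a name were those of axo06666-r_at, from 4.97, 4.89 and 5.31 to 7.43, 7.39 and 7.36 (2.34 ± 0.10), and of axo11193-r_at (1.84 ± 0.07). Both stayed under their uninjured levels at 7 days.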

How the data were processed

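Total RNA from pools of 10 animals was hybridised to Affymetrix arrays after 3′ labelling, per the labels' protocols. The authors deposited log2 expression values per probe set, summarised with RMA in Affymetrix Expression Console, per the submitters' processing notes. RMA corrects background, makes the arrays' distributions alike by quantile normalization and summarises probes, so a shift shared by most probe sets is removed. Whether all 15 arrays were processed together is not given in the sources used here. The values carry no count depth or detection call, so the number of arrays limits the precision. The 45 control probe sets were left out of the tests.

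The deposited values were used without further normalization. A model with 1 mean for each of 5 groups was fitted in limma 3.58.1 (R 4.3.3) over 20035 probe sets, with empirical Bayes variances, 10 residual degrees of freedom and Benjamini-Hochberg adjustment over all probe sets; a call is an adjusted p under 0.05. The model was also tried on simulated data, and the outcome is not given here and does not bear on the calls. Gene symbols came from the platform annotation, which names 10951 probe sets by 1 gene; of 8639 genes, 1740 had several probe sets and 83 of these had probe sets called in opposite directions. For each gene the brightest of its probe sets, by the mean over 15 arrays, was used. Named genes were the 15 largest called rises and 15 largest called falls whose arrays did not overlap, the 6 called members of each list with the largest change, genes fixed by name, and the 2 largest unnamed probe sets each way; cell type markers are named beside these, and the disagreeing probe sets of CDH1, VIM and others were picked out after their values were seen. The comparison, the 44 gene lists (1574 genes measured of 2608 written) and the markers were chosen with earlier results of these data known. Genome positions and sequences were not used.

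Replicate numbers were not treated as pairs, since the labels state no block. Over the 3 same-numbered pairs of 3 and 7 day arrays the correlation of deviations from the group means was -0.03 to 0.00. Over all 30 same-numbered pairs of the 5 groups it was -0.22 to 0.23, with a median of -0.01. Alternatives were a replicate block, the compared arrays alone, cyclic loess, median centring, an intensity trend, robust variances, array weights, a filter on the dimmest 25% of probe sets, a 2-fold threshold, 1 probe set per gene before adjustment, probe sets averaged per gene, and leaving out each array in turn. Figures were drawn with matplotlib.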

Additional observations from a re-analysis of the deposited data

Results flagged for a closer look

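Poly-A control RNA, which is added to each sample before labelling and does not come from the tissue, lay outside the comparison of genes and was above the uninjured arrays at both times. Over 24 control probe sets its mean log2 signal was 7.54 ± 0.0286 (SD, n = 3 arrays) in uninjured cord, 8.33 ± 0.0955 at 3 days and 7.94 ± 0.140 at 7 days. All arrays of both times were above all uninjured arrays, and all 3 day arrays were above all 7 day arrays. The part of this signal in the differences between 3 and 7 days was not tested.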

How the results depend on the processing

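No called named gene changed its direction under any alternative in which its probe set was tested. The list medians given as turning sign and the balance of all calls under loess and centring did turn, and some list counts moved. Of 258 called named genes 246 kept their call under every alternative other than the 2-fold threshold, and 12 lost it under at least 1: PSMB8, INSIG1, INSIG2, CDH5, RPL28, RPS6, OVOL2, IRAK4, MKI67, STAT3, KCNJ10 and DLK1. With a log2 difference of at least 1 required, 147 probe sets were higher and 253 lower, and 2104 differed from uninjured cord at 7 days and 2182 at 3 days. With 1 probe set for each of 8639 named genes adjusted on its own, 2273 were higher and 1508 lower, and 5283 and 5423 differed from uninjured cord; fewer features were tested there. Leaving out each array in turn gave 4014 to 4098 higher and 3267 to 3344 lower, with 10824 to 11588 called against uninjured cord at 7 days and 11230 to 12054 at 3 days. The replicate block, although the labels state no block, gave 4377 higher, 3614 lower, 11417 and 11908. Higher against lower calls were 3862 to 4141 with loess and 3886 to 4392 with median centring, so the balance depends on the scaling. Without the dimmest probe sets 4461 were higher and 3331 lower, and the medians of the hypoxia, granulocyte, TGF-beta and axon guidance lists changed sign, as those of cholesterol synthesis, lymphocyte, endothelium, liver and Wnt genes did under loess or centring; the cause was not tested. The TGF-beta median, -0.03 as reported, was also above 0 without the first 3 day array (0.02), the third 3 day array (0.03) or the third 7 day array (0.01) and with probe sets averaged per gene (0.02). Small counts in the minor direction moved with single arrays: rises of respiratory chain genes (2) were 0 or 1 without any 1 of the 6 arrays, rises of epidermal genes (2) were 1 without the first or second 3 day or the first 7 day array, and falls of vessel genes (2) were 1 without 3 day array 2 or 3 or 7 day array 2. The fall of 1 inflammatory gene became 2 without the second 3 day or first 7 day array and 0 without the third 3 day or second 7 day array. The rise of 1 red cell gene was lost without the third 3 day or the first or second 7 day array, and 1 of 2 falls of macrophage genes without the first 7 day array. Signals near the lower quartile of an array are not shown to be above background, and 3 arrays per group limit the precision.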
